A study of Mus musculus with 6 samples.

Results

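The genes described here are 10 parts of the Wnt signalling chain of the mouse: the ligand gene Wnt3, the ligand-modifying enzyme gene Porcn, the receptor genes Fzd5 and Fzd7, the co-receptor genes Lrp5 and Lrp6, the scaffold gene Apc, the transducer gene Ctnnb1, and the DNA-binding factor genes Tcf7l1 and Tcf7l2. They were chosen by name for their place in the pathway, and all 10 were found among the 24594 Entrez gene IDs of the count table. RNA-seq had been done on epithelial organoids, which are small structures grown in a gel from crypts of the adult mouse proximal small intestine. All 6 samples carried TetON-hYAP/H2B-mCherry, a doxycycline-switched human YAP together with a red fluorescent histone. YAP is a transcriptional coactivator that the Hippo pathway restrains, and this transgene is a constitutively active mutant per the design text. The doxycycline group (3 libraries) had 1 µg/ml of the drug for 48 h from passaging, and the control group (3 libraries) had none.

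Both groups grew in medium with EGF (50 ng/ml), Noggin (100 ng/ml) and R-spondin1 (500 ng/ml), and each sample started from the crypts of 1 animal. The protocol adds CHIR99021, an inhibitor of GSK3 that activates Wnt signalling, and nicotinamide in some cultures, and the labels do not say whether these libraries were among them. The age, sex and strain background of the animals and the promoter that drives the doxycycline-responsive activator are not in the labels. No group had doxycycline without the transgene, so the drug and YAP cannot be told apart. The comparison asks which of the pathway's transcripts differ when active YAP is induced.

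In the canonical Wnt pathway, Porcn attaches a fatty acid to a Wnt protein in the endoplasmic reticulum, and the secreted ligand then binds a Frizzled receptor and an LRP co-receptor together. Without ligand, a complex built on Apc and Axin marks beta-catenin, the product of Ctnnb1, for destruction. With ligand, beta-catenin accumulates and binds TCF proteins on DNA, which otherwise keep target genes repressed. In the small intestine this pathway maintains the stem cells of the crypt base, and Paneth cells beside them are a known epithelial source of Wnt3.

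The promoters of the members with the smallest adjusted p (Wnt3, Tcf7l2 and Ctnnb1) are shown, since these are the members for which the test separated the groups best. Each window holds 250 bases before an annotated transcript start in lower case and the 50 bases from the start onward in capitals, on the plus strand, from RefSeq's annotation of GRCm38.p6. Wnt3 is at chr11:103773925-103774224, Tcf7l2 at chr19:55741560-55741859 and Ctnnb1 at chr9:120933150-120933449.
Wnt3: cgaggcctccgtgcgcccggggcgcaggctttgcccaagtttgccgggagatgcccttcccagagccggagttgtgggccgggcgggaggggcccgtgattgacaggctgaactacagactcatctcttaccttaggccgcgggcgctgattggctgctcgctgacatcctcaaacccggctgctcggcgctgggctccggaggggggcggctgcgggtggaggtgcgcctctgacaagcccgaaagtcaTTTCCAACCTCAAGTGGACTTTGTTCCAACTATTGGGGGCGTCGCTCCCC
Tcf7l2: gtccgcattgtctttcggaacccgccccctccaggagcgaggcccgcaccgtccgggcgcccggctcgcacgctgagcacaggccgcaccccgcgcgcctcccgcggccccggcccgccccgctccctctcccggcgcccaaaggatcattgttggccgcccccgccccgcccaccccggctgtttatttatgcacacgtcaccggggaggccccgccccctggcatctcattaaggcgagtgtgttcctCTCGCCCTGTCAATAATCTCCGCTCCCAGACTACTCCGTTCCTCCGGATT
Ctnnb1: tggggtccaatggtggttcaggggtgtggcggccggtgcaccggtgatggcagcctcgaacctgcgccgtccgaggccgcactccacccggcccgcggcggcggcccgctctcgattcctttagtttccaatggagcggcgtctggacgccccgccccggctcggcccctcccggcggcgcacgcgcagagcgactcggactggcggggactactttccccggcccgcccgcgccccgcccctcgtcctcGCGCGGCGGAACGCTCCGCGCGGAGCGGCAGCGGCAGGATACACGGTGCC

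The 3 windows are rich in G and C, at 65.7% in Wnt3, 70.0% in Tcf7l2 and 75.3% in Ctnnb1, against a median of 52.7% over all 32851 windows of 300 bases in the promoter table. They hold 24, 34 and 46 CpG dinucleotides in the same order of genes, where the median window holds 7. Windows were at hand for 6 of the 10 genes (8 windows, since Ctnnb1 and Tcf7l2 have 2 each). The other Tcf7l2 window, not shown, had 42.0% G and C and 7 CpG, and the other Ctnnb1 window had 75.0% and 51. The letters CATTCC, a TEAD-type motif, were in none of the 8 on either strand, and 14.7% of all windows held them. The TCF-type letters CTTTGAT were also in none of the 8, against 3.73% of all windows. Only these exact letters were searched, so other forms of either motif may be present in the windows. Motif absence describes the letters of these windows only.

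**Figure D1:**
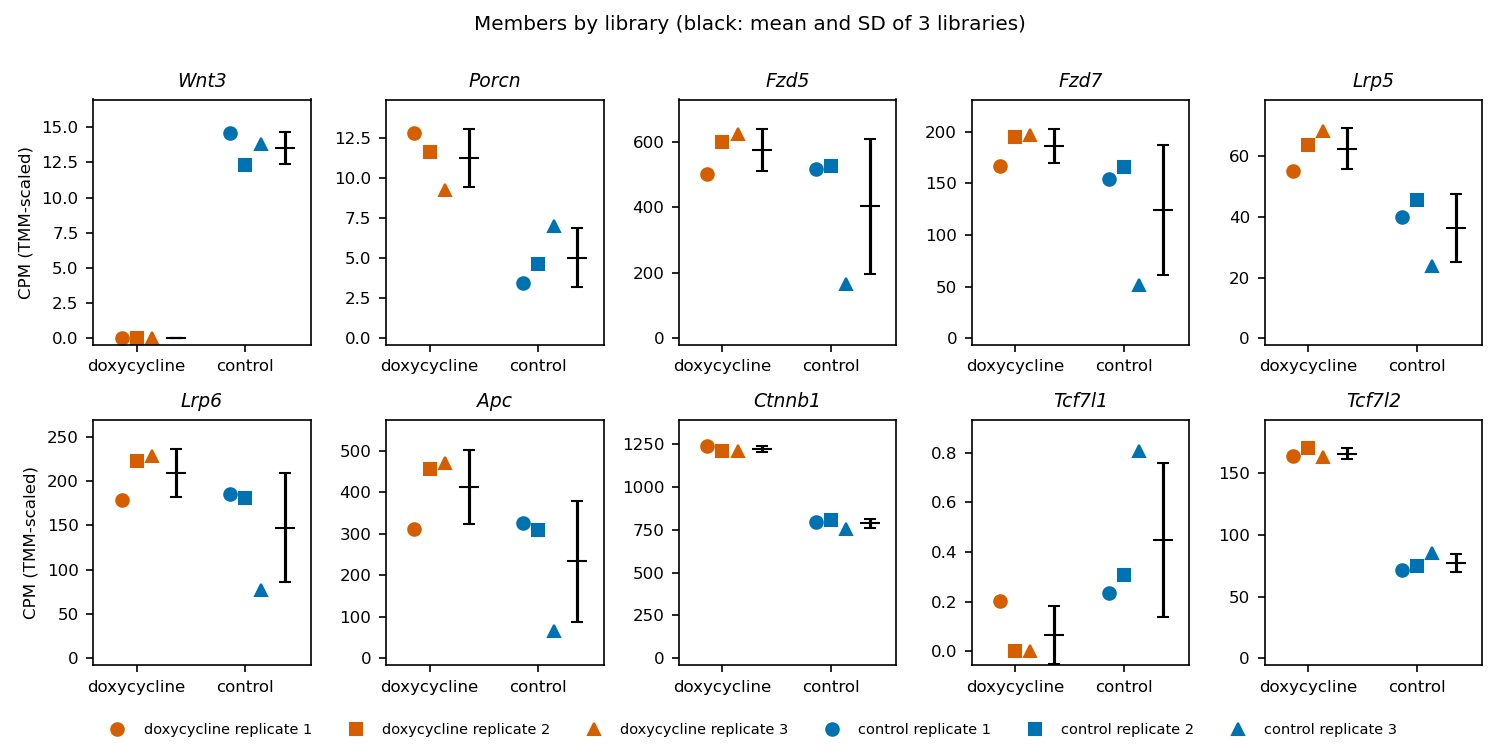
CPM (read counts scaled to TMM-adjusted library size) of the 10 genes in each library, with doxycycline libraries on the left and control libraries on the right of each panel; black bars are the mean and SD of 3 libraries. Wnt3 is at 0 in all doxycycline libraries, Tcf7l2 and Ctnnb1 are higher in every doxycycline library than in any control, and control replicate 3 is the lowest library for Fzd5, Fzd7, Lrp5, Lrp6 and Apc.

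With doxycycline, the epithelial ligand Wnt3 was not detected, while Tcf7l2, Ctnnb1, Porcn and Lrp5 rose and the other receptor and scaffold genes did not pass the test. Of the 9 members with enough counts to be tested, 4 rose and 1 fell with an edgeR adjusted p under 0.05. Across all 12909 genes tested, 21.7% rose and 23.6% fell, together 45.3%. Thus 5 of 9 members called is near the share of all genes called. The median log2 fold change of the 9 was 0.63, against -0.08 for all genes. Between the groups, the CPM of 6 of the 9 did not overlap, with 5 higher and 1 lower, where 61.3% of all genes did not overlap (30.0% higher and 31.3% lower). Libraries held 8533452 to 16803062 counts.

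Control replicate 3 stood apart from the other libraries and touches most results below. Its log2 CPM correlated with those of the other controls at r of 0.916 and 0.919 across genes, where the other controls had 0.991 with each other and the doxycycline libraries 0.986 to 0.990. Its genes with over 5 kb of exon sat a median of 0.27 below the 6-library mean on the log2 scale (a deviation of -0.27), and those under 2 kb sat 0.635 above it. The summed exons of the members ran from 3.00 kb in Porcn to 16.12 kb in Apc. Without this library, 5 of 9 members rose and 1 fell, while 34.9% of all genes rose and 35.1% fell (69.9% in all). With a trend with exon length removed within each library, the same 4 members rose. Their log2 changes were 0.98 for Tcf7l2, 0.62 for Ctnnb1, 1.30 for Porcn and 0.69 for Lrp5. Fzd5 (0.51), Fzd7 (0.59), Lrp6 (0.37) and Apc (0.71) were still not called.

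Wnt3 (Entrez 22415, chromosome 11, 103774175 to 103818021, GRCm38.p6) encodes a ligand of the canonical pathway. It had 0 counts in each of the 3 doxycycline libraries, against 249, 160 and 137 counts in the control libraries. On the CPM scale the controls were at 14.56, 12.32 and 13.79, which is 13.56 ± 1.14 (SD, n = 3). The groups did not overlap, and the control libraries stood close together, control replicate 3 included. Wnt3 was at least 158-fold lower with doxycycline, taking 3 counts over the doxycycline group as the floor, and edgeR gave an adjusted p of 0.000191. Without doxycycline replicate 3, the most deeply sequenced library, the bound was 94.1-fold. Bounds and intervals here cover counting error only.

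Markers of Paneth cells moved with Wnt3. All 12 of the measured markers of the 15 listed fell, where 23.6% of all genes fell. Without any 1 of the doxycycline libraries, 10 fell, where 3836 to 4245 of all genes were called in either direction. The list's summed level was 49.13 to 55.83 CPM with doxycycline, against 2358 to 4934 CPM in controls. In these bulk samples, fewer cells of a type and less RNA per cell cannot be told apart. Control replicate 3 had the highest Paneth sum, 4934 CPM. Lyz1, the largest part of the sum, has 1.26 kb of exon, in the class of short genes that read high in that library. Whether exon length bears on that sum was not tested. Lyz1, a lysozyme gene of Paneth cells, was at 31.94 ± 1.06 CPM with doxycycline, against 2607 ± 1005 CPM in controls. The part of Paneth cell number in the fall of Wnt3 was not tested.

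Other ligand genes went the other way, and the ligand makeup of the organoids changed. Of 19 Wnt genes, 7 had enough counts to be tested, Wnt3 among them. Wnt4, Wnt7a and Wnt7b rose, Wnt9b fell with Wnt3, and Wnt2b and Wnt5b did not pass the test. Wnt4 had 69.78, 66.53 and 60.42 CPM with doxycycline, against 3.86, 4.003 and 9.462 CPM in controls, with no overlap. It rose by a log2 change of 3.53 (SE 0.378, edgeR adjusted p = 0.000561). Wnt4 is known for its part in kidney and female reproductive tract development.

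Wnt7a averaged 12.12 ± 1.43 CPM with doxycycline and 0.196 ± 0.040 CPM in controls, a log2 change of 5.86 (SE 0.315, edgeR adjusted p = 5.59e-05). Wnt7b, its close relative, had 297 counts over the doxycycline libraries and 2 over the controls, a ratio of 171 after scaling (95% exact binomial interval 46.8 to 1410; edgeR adjusted p = 0.000241). Control replicate 1 held both of those control counts, and with that library left out Wnt7b was at least 65.1-fold higher. These relatives can signal through beta-catenin in other tissues. Wnt9b averaged 0.781 ± 0.344 CPM with doxycycline and 3.43 ± 1.38 CPM in controls (log2 change -2.16, SE 0.484, edgeR adjusted p = 0.0107). For Wnt5b the log2 change was -1.44 (edgeR adjusted p = 0.0562) and for Wnt2b -0.24 (0.774).

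Set per kilobase of exon, so that genes can be compared, the 19 ligand transcripts summed to 22.7 ± 1.56 CPM per kb with doxycycline and 7.86 ± 0.482 CPM per kb in controls. Wnt3 made up none of the doxycycline sum, where 0 of 3165 ligand counts allows a share of up to 0.0948% of counts. In controls it was 62.1, 52.9 and 53.2% of the length-scaled sum and so the most abundant ligand in each library. Wnt4 was 68.8 ± 0.311% with doxycycline and 17.2 ± 8.35% in controls. Wnt7a was 16.9 ± 2.34% with doxycycline and 0.789 ± 0.166% in controls, and Wnt7b was 7.73 ± 1.12% with doxycycline and 0.105 ± 0.181% in controls. The leading ligand was therefore Wnt4 in every doxycycline library and Wnt3 in every control library.

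**Figure D2:**
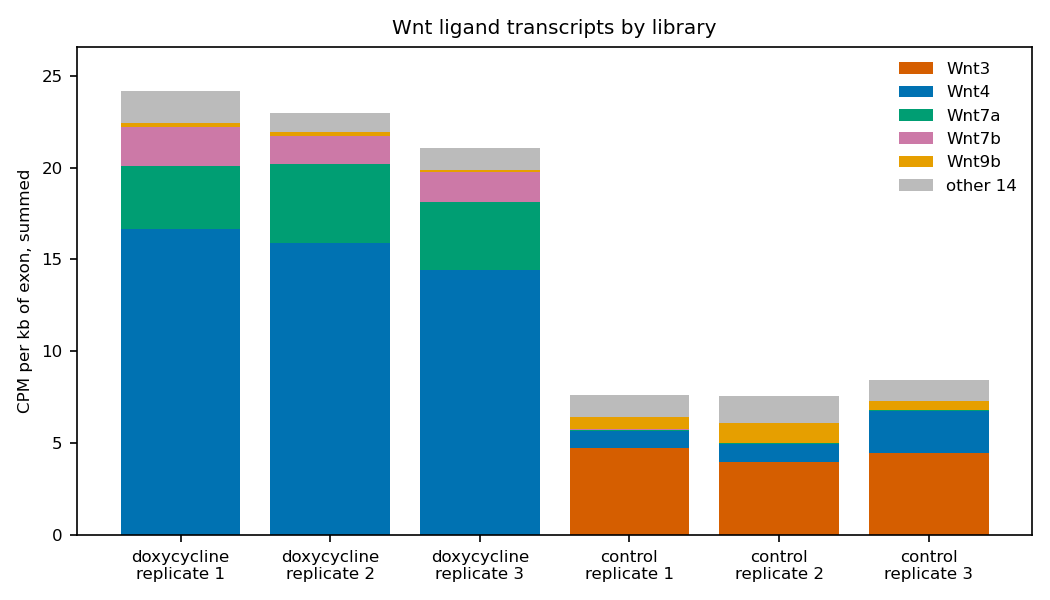
Summed CPM per kb of exon of 19 Wnt ligand genes in each library, doxycycline libraries on the left and control libraries on the right, with colours for 5 genes and grey for the other 14. The doxycycline bars are taller (22.7 ± 1.56 against 7.86 ± 0.482 CPM per kb in controls) and hold mainly Wnt4, while Wnt3 fills over 50% of each control bar.

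Porcn (Entrez 53627, chromosome X, 8193846 to 8206548), the acyltransferase that Wnt ligands need for secretion, rose. It had 12.84, 11.66 and 9.258 CPM with doxycycline, against 3.451, 4.619 and 7.046 CPM in controls. All doxycycline libraries were above all controls, and doxycycline replicate 3 and control replicate 3 came closest. Its log2 change was 1.17 (SE 0.313, edgeR adjusted p = 0.0211). The call was lost without doxycycline replicate 1 (adjusted p = 0.0767), doxycycline replicate 2 (0.0723), control replicate 1 (0.0561) or control replicate 2 (0.0641), and without control replicate 3 the log2 change was 1.50 (adjusted p = 1.11e-05).

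Among the 10 measured genes of ligand acylation and secretion, 5 rose, Porcn included, and 1 fell. Of all genes tested, 21.7% rose and 23.6% fell. The carrier gene Wls, which takes Wnt proteins to the cell surface, averaged 44.1 ± 2.87 CPM with doxycycline and 25.8 ± 4.38 CPM in controls (log2 change 0.77, SE 0.177, edgeR adjusted p = 0.0111). With the length trend removed, Wls had an adjusted p of 0.0716. The stearoyl-CoA desaturase genes Scd1 and Scd2 make the kind of fatty acid that Porcn attaches, and they also serve general lipid synthesis. Scd1 averaged 3096 ± 428.8 CPM with doxycycline and 625.0 ± 257.5 CPM in controls (log2 change 2.31, SE 0.354, edgeR adjusted p = 0.00232). The count of genes that rose was 2 without doxycycline replicate 1 or 2 and 3 without doxycycline replicate 3, control replicate 1 or control replicate 2. The fall of Tmed5, a cargo receptor gene of the secretory route, was lost without each of these libraries.

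The 2 Frizzled members did not pass the test. Fzd5 (Entrez 14367, chromosome 1, 64730558 to 64737750) is a receptor that Paneth cells are known to need for maturation. It had 501.5, 600.3 and 621.9 CPM with doxycycline, against 515.2, 526.8 and 164.5 CPM in controls. The groups overlapped, and control replicate 3 had less than 1 in 3 of the CPM of any other library. The log2 change was 0.51 (SE 0.417, edgeR adjusted p = 0.35), and 0.16 without control replicate 3 (adjusted p = 0.101).

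Fzd7 (Entrez 14369, chromosome 1, 59482147 to 59486955) is a Frizzled receptor of crypt base stem cells. It had 167.0, 194.7 and 196.3 CPM with doxycycline, against 154.2, 165.8 and 51.84 CPM in controls. The groups did not overlap, but doxycycline replicate 1 and control replicate 2 nearly met. The log2 change was 0.58 (SE 0.407, edgeR adjusted p = 0.279). Without control replicate 3 it was smaller, 0.23, and passed the test (adjusted p = 0.02).

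The 2 receptors stood in a similar proportion to each other in all 6 libraries. The log2 ratio of Fzd5 to Fzd7 counts in a library was 1.62 ± 0.04 with doxycycline and 1.69 ± 0.04 in controls (SD, n = 3 each). Control replicate 3, low in both genes, had a ratio of 1.66, within the range of the other libraries. The difference of -0.07 had an exact two-sided permutation p of 0.1, the smallest that 3 against 3 libraries can give (0.15 adjusted over the 3 pairs tested). Together these genes made up most of the length-scaled Frizzled transcripts. Fzd5 was 61.4 ± 0.915% with doxycycline and 53.6 ± 4.48% in controls, and Fzd7 was 30.4 ± 0.509% with doxycycline and 25.3 ± 1.84% in controls.

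Among the less abundant Frizzled genes, Fzd2, Fzd3 and Fzd9 fell. Of 9 measured Frizzled genes of the 10 listed, none rose and 3 fell, where 21.7% of all genes rose and 23.6% fell. Without control replicate 3 it was 1 that rose and 5 that fell, where 34.9% of all genes rose and 35.1% fell. Fzd2 averaged 2.63 ± 0.351 CPM with doxycycline and 21.9 ± 1.25 CPM in controls (log2 change -3.05, SE 0.211, edgeR adjusted p = 0.000112). Fzd9 averaged 0.610 ± 0.085 CPM with doxycycline and 8.46 ± 1.65 CPM in controls (-3.79, SE 0.311, adjusted p = 0.000192). Fzd3, known for guiding axons with the polarity proteins, had a log2 change of -2.32 (SE 0.424, adjusted p = 0.00472). Fzd4 and Fzd6 had log2 changes of -0.13 and 0.12 (adjusted p = 0.805 each).

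Lrp5 (Entrez 16973, chromosome 19, 3584825 to 3686585) and Lrp6 (Entrez 16974, chromosome 6, 134446476 to 134566913) are closely related co-receptors that dock Axin once a ligand has bound. Lrp5 had 55.12, 63.94 and 68.55 CPM with doxycycline, against 40.01, 45.49 and 23.75 CPM in controls. The groups did not overlap, and control replicate 3 was the lowest. Lrp5 rose by a log2 change of 0.78 (SE 0.258, edgeR adjusted p = 0.0443). The call was lost without doxycycline replicate 1 (adjusted p = 0.0799), doxycycline replicate 2 (0.123), doxycycline replicate 3 (0.136) or control replicate 1 (0.0678), and without control replicate 3 the log2 change was 0.57 (adjusted p = 0.000119).

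Lrp6 had 178.5, 222.5 and 227.9 CPM with doxycycline, against 185.1, 180.7 and 76.9 CPM in controls. Doxycycline replicate 1 lay just below the higher 2 controls, so the groups overlapped. The log2 change was 0.51 (SE 0.338, edgeR adjusted p = 0.259), and 0.21 without control replicate 3 (adjusted p = 0.0513). Whether Lrp5 and Lrp6 moved by different amounts was tested on their count ratio within each library. The log2 ratio of Lrp5 to Lrp6 was -1.74 ± 0.05 with doxycycline and -1.96 ± 0.26 in controls, a difference of 0.22 (exact two-sided permutation p = 0.4, and 0.4 adjusted over the 3 pairs). Control replicate 3 had a ratio of -1.69, where the other controls had -2.21 and -1.99. Without that library the difference was 0.36 (exact two-sided permutation p = 0.1, the smallest possible there). Of other co-receptor genes, Lrp4, Ror2 and Ptk7 fell, and Lrp5 was the one that rose among the 8 measured of 11. The shares of all genes were 21.7% that rose and 23.6% that fell.

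Lrp4, a relative of Lrp5 and Lrp6 that is known for damping Wnt signals in bone, averaged 15.0 ± 1.79 CPM with doxycycline and 63.1 ± 10.4 CPM in controls (log2 change -2.07, SE 0.195, edgeR adjusted p = 0.000325). Ror2, a receptor kinase of the beta-catenin-independent branch, averaged 5.55 ± 0.960 CPM with doxycycline and 28.4 ± 4.40 CPM in controls (-2.35, SE 0.227, adjusted p = 0.000343). Ptk7, a pseudokinase of the same branch, had a log2 change of -2.26 (SE 0.407, adjusted p = 0.00444). None of these 3 calls was lost without any 1 library or with any other setting tried.

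The receptors of R-spondin, a protein in the medium of both groups, are known to control how much Frizzled stays on the cell surface. Of 5 measured genes of this group, 3 fell and none rose, where 23.6% of all genes fell and 21.7% rose. The ubiquitin ligase genes Rnf43 and Znrf3, whose products remove Frizzled from the surface, had log2 changes of -1.73 (SE 0.212, edgeR adjusted p = 0.000954) and -1.82 (SE 0.39, adjusted p = 0.0089). Lgr5, the R-spondin receptor of crypt base stem cells, had a log2 change of -7.66 (SE 0.403, adjusted p = 5.89e-05). Its relative Lgr4 averaged 256.9 ± 13.0 CPM with doxycycline and 299.4 ± 105.3 CPM in controls (-0.22, adjusted p = 0.555), and it fell without control replicate 3 (-0.47, adjusted p = 9.72e-06). Markers of crypt base stem cells, a list that holds Lgr5, Rnf43 and Znrf3, summed to 638.7 to 659.7 CPM with doxycycline, against 5350 to 7860 CPM in controls, and 13 of 14 fell. The part of stem cell number in these falls was not tested.

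Apc (Entrez 11789, chromosome 18, 34220297 to 34322190), the scaffold of the destruction complex and a tumour suppressor of the intestine, did not pass the test. It had 311.1, 455.8 and 470.0 CPM with doxycycline, against 326.0, 308.8 and 65.93 CPM in controls. Doxycycline replicate 1 fell between control replicates 1 and 2, so the groups overlapped, and control replicate 3 was by far the lowest. The log2 change was 0.82 (SE 0.548, edgeR adjusted p = 0.261), and 0.39 without control replicate 3 (adjusted p = 0.115). Apc has the longest exon sum of the members and also the lowest level in control replicate 3 relative to the other controls. Other members did not follow that order. Tcf7l2, at 8.78 kb, was higher in that library than in the other controls (85.05 against 71.3 and 74.59 CPM). Fzd7, at 4.53 kb, was low there (51.84 against 154.2 and 165.8 CPM). Whether exon length bears on these levels was not tested.

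Around Apc, 4 of 22 measured genes of the Dishevelled and destruction complex list rose and 4 fell. Of all genes tested, 21.7% rose and 23.6% fell. The falls were led by feedback genes that beta-catenin is known to switch on. Axin2 averaged 24.0 ± 3.31 CPM with doxycycline and 273.4 ± 71.2 CPM in controls (log2 change -3.51, SE 0.264, edgeR adjusted p = 0.000157). Nkd1, which binds Dishevelled, had 5 counts over the doxycycline libraries and 183 over the controls (-4.95, SE 0.537, adjusted p = 0.000577). Amer1, which brings Apc to the membrane, fell by 1.07 (SE 0.171, adjusted p = 0.00262). Gsk3b, the kinase that phosphorylates beta-catenin, had a log2 change of 0.49 (adjusted p = 0.301). Axin1, the scaffold related to Axin2, also fell and was named here with its values known (log2 change -0.46, edgeR adjusted p = 0.0314), and its call was lost without each library other than control replicate 3 (0.0833 to 0.139).

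The calls of the rises on this list were also lost when some single libraries were left out. Csnk1a1, the kinase that primes beta-catenin for Gsk3b, averaged 1094 ± 43.2 CPM with doxycycline and 599.1 ± 165.4 CPM in controls (log2 change 0.87, SE 0.235, edgeR adjusted p = 0.0218). Its call was lost without each doxycycline library in turn (adjusted p = 0.0634 to 0.0777), while its log2 change stayed at 0.85 to 0.90. In those settings 3836 to 4245 of all genes were called, against 5850 with all libraries. The number that rose was 0 without doxycycline replicate 1 or 2 and 1 without doxycycline replicate 3. It was 2 without control replicate 1 and 6 without control replicate 3, where 34.9% of all genes rose.

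Ctnnb1 (Entrez 12387, chromosome 9, 120933400 to 120960507) encodes beta-catenin, which serves both Wnt signalling and cell junctions. It had 1239, 1209 and 1205 CPM with doxycycline, against 796.0, 807.4 and 753.5 CPM in controls. The groups were far apart relative to their spread, and control replicate 3 lay with the other controls. Ctnnb1 rose by a log2 change of 0.63 (SE 0.142, edgeR adjusted p = 0.0102). Without doxycycline replicate 2 the adjusted p was 0.0508 and without doxycycline replicate 3 it was 0.051, at log2 changes of 0.64 and 0.65, and without control replicate 3 it was 6.93e-08 at 0.62.

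Of the 2 TCF members, Tcf7l2 rose and Tcf7l1 was barely detected. Tcf7l2 (Entrez 21416, chromosome 19, 55741797 to 55933659) is the main TCF of the intestinal epithelium. It had 163.6, 170.6 and 162.9 CPM with doxycycline, against 71.3, 74.59 and 85.05 CPM in controls. Every doxycycline library was above every control, with little spread within either group. Tcf7l2 rose by a log2 change of 1.11 (SE 0.15, edgeR adjusted p = 0.00128). Alone among the 4 members that rose, it kept its call in every alternative tried, with log2 changes of 1.06 to 1.20 when 1 library was left out.

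Tcf7l1 (Entrez 21415, chromosome 6, 72626371 to 72789045), a TCF that mostly represses, was close to the limit of detection. It had 2, 0 and 0 counts with doxycycline, against 4, 4 and 8 counts in controls, and was too low for the test; with no filter on low counts its adjusted p was 0.139. The scaled ratio was 6.97-fold lower with doxycycline (95% exact binomial interval 1.64 to 62.4). Without control replicate 3 it was 4.63-fold lower (interval 0.924 to 44.8) and without doxycycline replicate 3 it was 4.14-fold lower (0.973 to 37.1), and both intervals include no difference. Both doxycycline counts were in replicate 1, without which Tcf7l1 was at least 3.33-fold lower. The log2 count ratio of Tcf7l1 to Tcf7l2 gave no firm size, since 2 doxycycline libraries had no Tcf7l1 count and the pseudocount sets their values. The difference between the groups was -3.63 with a pseudocount of 0.5 and -2.42 with a pseudocount of 2 (exact two-sided permutation p = 0.1 for each, the smallest possible; 0.15 adjusted over the 3 pairs at the first pseudocount).

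Elsewhere in the nucleus, 6 of 22 measured genes of the beta-catenin and TCF list rose, Ctnnb1 and Tcf7l2 included, and 4 fell. The shares of all genes were 21.7% that rose and 23.6% that fell. Tcf7, the TCF family member that beta-catenin itself is known to induce, averaged 9.83 ± 1.30 CPM with doxycycline and 26.9 ± 1.66 CPM in controls (log2 change -1.45, SE 0.182, edgeR adjusted p = 0.000973). Ctnnbip1, an inhibitor that keeps beta-catenin off the TCFs, averaged 84.1 ± 3.85 CPM with doxycycline and 39.8 ± 1.41 CPM in controls (1.08, SE 0.139, adjusted p = 0.00106). Of 6 measured genes of the Groucho family of corepressors, 1 rose, 1 fell and 4 did not pass. Tle4 had a log2 change of 0.94 (SE 0.178, adjusted p = 0.00505) and Tle3 of -0.90 (SE 0.171, adjusted p = 0.00518). The number that rose was 3 without doxycycline replicate 2 or 3, 4 without control replicate 1 or 2 and 9 without control replicate 3. The number that fell was 2 without any 1 doxycycline library and 6 without control replicate 3. In that last setting, 34.9% of all genes rose and 35.1% fell.

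Of 4 measured antagonist genes of the 19 listed, 2 fell and 2 rose, where 23.6% of all genes fell and 21.7% rose. Sfrp5, a secreted decoy for Wnt proteins, averaged 0.352 ± 0.325 CPM with doxycycline and 24.0 ± 1.83 CPM in controls (log2 change -6.17, SE 0.518, edgeR adjusted p = 0.000235). Apcdd1, a membrane inhibitor, had a log2 change of -2.83 (SE 0.498, adjusted p = 0.00406). Kremen2, a co-factor of the Dkk inhibitors of LRP proteins, averaged 10.6 ± 1.67 CPM with doxycycline and 2.10 ± 1.25 CPM in controls (2.36, SE 0.422, adjusted p = 0.00431). Its relative Kremen1 had a log2 change of 1.01 (adjusted p = 0.0369), and that call was lost without each doxycycline library in turn (0.0718 to 0.113).

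**Figure D3:**
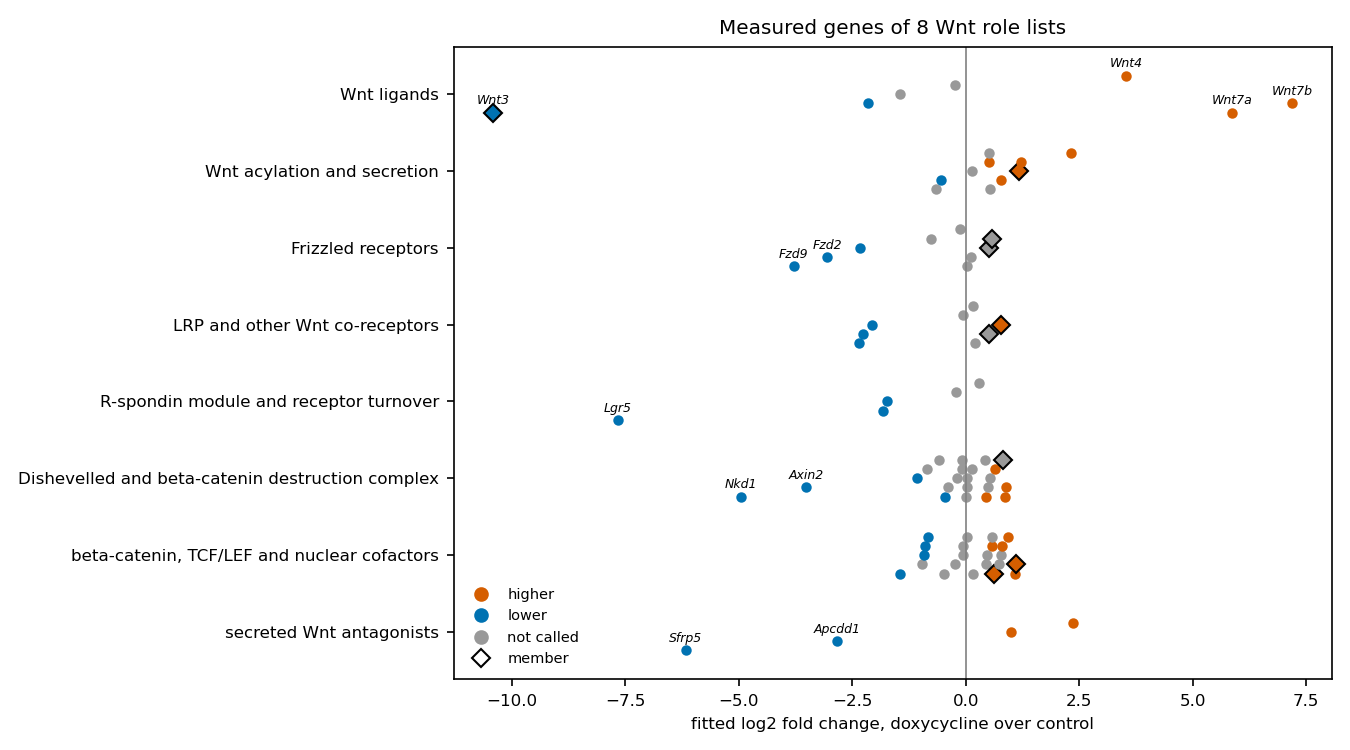
Fitted log2 fold changes (doxycycline over control) of the measured genes of 8 Wnt role lists, 1 point per gene, orange for higher, blue for lower and grey for not called at an edgeR adjusted p of 0.05, with the 10 genes described here as diamonds where tested. Every call on the Frizzled and R-spondin lists is a fall, while the ligand list holds both the lowest value (Wnt3, where the fitted value is no bound) and the highest (Wnt7b).

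Over all 8 lists, 78 of the other 119 genes were measured, of which 17 rose and 21 fell. Their median log2 fold change was -0.02. Without doxycycline replicate 1, 2 or 3, the number that rose was 8 or 9, and without control replicate 3 it was 26. The calls that fell numbered 17 to 19 without any 1 library other than control replicate 3, and 28 without that library. Of all genes, 21.7% rose and 23.6% fell with all 6 libraries, and 34.9% rose and 35.1% fell without control replicate 3. With total counts as the scaling, 7 of the 78 genes rose and 30 fell. That scaling put the median log2 change of all genes at -0.52 and called 6878 of all genes. The shares of all genes that rose and fell there were not computed, so these counts describe no fall particular to the pathway. On that scaling, 1 gene of the acylation and secretion list rose and 1 fell, none rose and 7 fell on the destruction complex list, and 3 rose and 8 fell on the beta-catenin and TCF list.

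**Figure D4:**
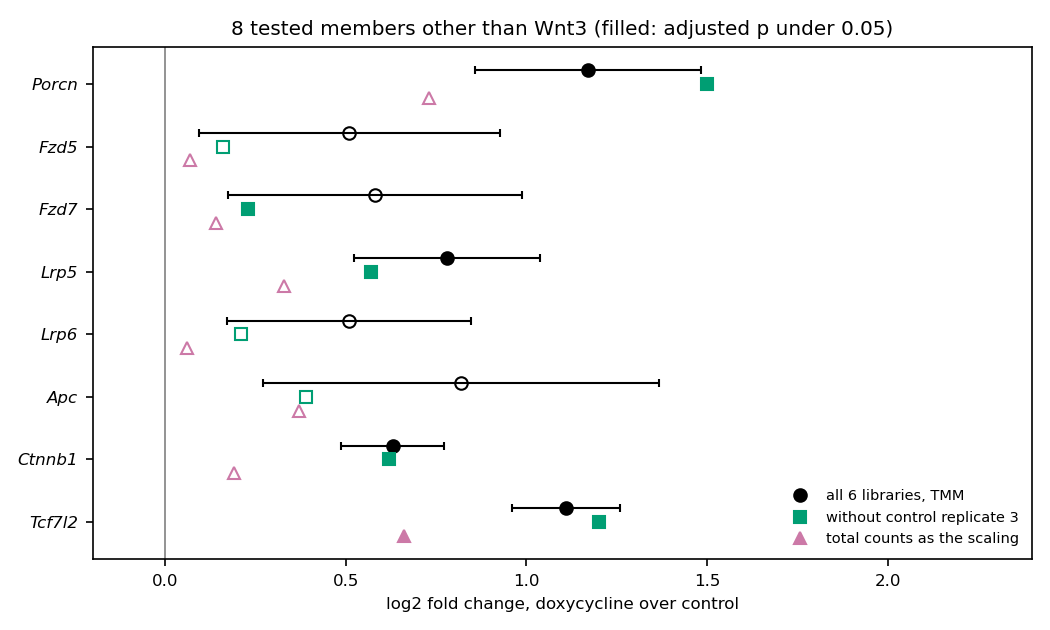
Log2 fold changes (doxycycline over control) of the 8 tested members other than Wnt3, with black circles and SE bars for all 6 libraries with TMM scaling, green squares without control replicate 3, and pink triangles with total counts as the scaling; filled symbols have an adjusted p under 0.05. All values are above 0, Tcf7l2 is filled in all 3 settings, and without control replicate 3 the values of Fzd5, Fzd7, Lrp6 and Apc are less than 50% of those with all libraries.

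The scaling of the libraries bears on the rises. With total counts in place of TMM, all genes together had a median of -0.52 on the log2 scale, and the log2 changes were 0.19 for Ctnnb1 (edgeR adjusted p = 0.296), 0.33 for Lrp5 (0.297), 0.73 for Porcn (0.0897) and 0.66 for Tcf7l2 (0.00907). All stayed above that median. Rises in this text are therefore relative to the TMM scale, while the fall of Wnt3 is as large without it (at least 216-fold lower).

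On the length-scaled level, the order of the members with doxycycline was Ctnnb1 (234.0 ± 3.53 CPM per kb), Fzd5 (83.1 ± 9.28), Fzd7 (41.0 ± 3.64), Apc (25.6 ± 5.46), Tcf7l2 (18.9 ± 0.486), Lrp6 (15.3 ± 1.98), Lrp5 (6.42 ± 0.701), Porcn (3.75 ± 0.609), Tcf7l1 (0.0172 ± 0.0298) and Wnt3 at 0. No neighbours in that order had overlapping mean ± SD ranges other than Tcf7l1 and Wnt3, although Apc in doxycycline replicate 1 (19.3 CPM per kb) was level with Tcf7l2. In controls Ctnnb1 again led at 151.0 ± 5.47 CPM per kb. Fzd5 (58.2 ± 29.8), Fzd7 (27.3 ± 13.8), Apc (14.5 ± 9.03), Lrp6 (10.8 ± 4.48) and Tcf7l2 (8.77 ± 0.819) followed, each overlapping its neighbour by mean ± SD.

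Those overlaps in the controls came with control replicate 3. Genes with over 5 kb of exon read low in that library. Fzd7, at 4.53 kb, is in the 2 to 5 kb class, which sat a median of 0.176 above the 6-library mean there. The cause of the low values was not tested. In control replicates 1 and 2 the same 5 genes were apart and in the same order, with Fzd5 at 74.5 and 76.2 CPM per kb, Fzd7 at 34.0 and 36.6, Apc at 20.2 and 19.2, Lrp6 at 13.5 and 13.2, and Tcf7l2 at 8.13 and 8.50. In control replicate 3, Tcf7l2 (9.69 CPM per kb) was above Lrp6 (5.62) and Apc (4.09). In all 3 doxycycline libraries Tcf7l2 was above Lrp6, and in control replicates 1 and 2 it was below. Wnt3 (4.41 ± 0.371) and Lrp5 (3.74 ± 1.16) overlapped in controls, and Porcn (1.68 ± 0.611) and Tcf7l1 (0.114 ± 0.0792) closed the order.

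For each member that passed the test, the 2 genes with the most similar profile over the 6 libraries were found by Euclidean distance of centred log2 CPM among 10099 genes. Wnt3 had no counts with doxycycline, so its values there, and its distances, are set by the prior count of 2. By that measure Aqp1, a water channel gene, was nearest to Wnt3 (distance 0.26), at 2.98 ± 0.062 CPM with doxycycline and 238.0 ± 11.8 CPM in controls, followed by Cttnbp2 (0.35). Nearest to Tcf7l2 were Cdc42bpb and Phlda1 (0.1 each), nearest to Ctnnb1 were Ttc7 (0.05) and Nudcd3 (0.08), nearest to Lrp5 were Specc1l and Odf2l (0.12 each), and nearest to Porcn were Upk1b (0.2) and Dusp9 (0.24). The profiles share the same 6 libraries and their scaling.

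The cultures carried the markers of epithelium. All 10 epithelial markers were measured, and they summed to 18550 to 19740 CPM with doxycycline, against 4977 to 5649 CPM in controls. Of them 6 rose and 1 fell, where 21.7% of all genes rose and 23.6% fell. The number that rose was 4 without doxycycline replicate 1 or 2. It was 9 without control replicate 3, where 34.9% of all genes rose. Their median log2 change was 0.98. Epcam averaged 528.3 ± 13.8 CPM with doxycycline and 583.2 ± 281.9 CPM in controls (log2 change -0.14, edgeR adjusted p = 0.745). Without control replicate 3, Epcam rose (0.34, adjusted p = 0.000269). Mesenchymal markers are of interest because that tissue makes Wnt ligands in the animal. They summed to 1.214 to 1.851 CPM with doxycycline, against 4.428 to 7.019 CPM in controls. Of the 14 listed, 4 had 0 counts in all 6 libraries, and the 1 measured fell. Immune markers summed to 30.04 to 31.56 CPM with doxycycline and 29.95 to 49.12 CPM in controls, so transcripts of that list were present in every library. Of the 11 listed, 3 had 0 counts throughout, and 1 of the 3 measured fell. Which cells held the immune-list transcripts was not tested. Endothelial markers summed to 1.415 to 2.544 CPM with doxycycline and 1.539 to 2.114 CPM in controls, and the 1 measured rose, a call lost without doxycycline replicate 2 or 3 or control replicate 1 or 2. The mouse Yap1 gene had 142.4, 149.0 and 145.9 CPM with doxycycline, against 230.6, 236.5 and 156.4 CPM in controls (log2 change -0.51, edgeR adjusted p = 0.0707), and it fell without control replicate 3 (-0.67, adjusted p = 1.28e-07). The induced transgene is human, so the mouse gene does not check the labels.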

How the data were processed

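The members and gene lists were chosen with earlier results of these data known. The deposited table held raw read counts per Entrez gene ID for 6 libraries (8533452 to 16803062 counts). Per the labels' protocols, a TruSeq RNA kit and a NextSeq sequencer were used. The submitters' processing notes name the build mm10. How reads were aligned and counted, and whether by strand, is not given in the sources used here. Counts of overlapping and antisense genes are therefore uncertain. RefSeq's table of GRCm38.p6 gave symbols to 24570 of 24594 IDs, and exon lengths were at hand for 21358.

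Libraries were grouped by treatment. Counts were tested with edgeR 4.0.16 in R 4.3.3: expression filter by group (12909 genes), TMM scaling, robust quasi-likelihood F-test and Benjamini-Hochberg adjustment over all genes, with a threshold of 0.05. "Rose" and "fell" mean past it. P-values measure the spread between these samples. All library pairs within a group differed beyond sampling noise. CPM per kb divides by the summed exon length. Count ratios of paralogs used a pseudocount of 0.5 and exact permutation. Where a group had 0 counts, folds are bounds against 3 counts over the group, and ratios with 1 to 3 counts have 95% exact binomial intervals.

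Named besides the members are up to 5 called genes per list with the smallest adjusted p, up to 2 with the highest mean CPM, 5 fixed genes and the nearest profiles. The text gives those the results turn on, and Wnt2b, Wnt5b and Axin1 were added after their values were seen. Alternatives were RLE, total counts, TMM computed after leaving out the 20 highest genes, no filter, 10 counts in 3 samples, DESeq2 1.42.0, voom of limma 3.58.1 with and without library quality weights, a replicate block, removal of a length trend, each library left out, and a threshold of 0.01. The edgeR fit was tested on simulated counts, with far fewer changed genes than were called here and no outlying library. That test does not cover the effect of control replicate 3 or of the scaling.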

Additional observations from a re-analysis of the deposited data

How the results depend on the processing

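No result changed direction in any of the 237 recomputed values, of which 201 were scored as unchanged. A fitted change was scored so when it kept its side of the threshold, and a count of genes when it stayed within 1.5 times. The 8 values of each count ratio were scored on sign alone, since 3 against 3 libraries cannot pass the threshold. Of these ratios, the Lrp5 to Lrp6 difference ran from 0.10 to 0.36. The 9 Tcf7l1 values were scored by the wide 95% interval of its ratio. Wnt3 and Tcf7l2 kept their calls in all alternatives. With total counts as the scaling, the log2 changes of Porcn (0.73), Lrp5 (0.33) and Ctnnb1 (0.19) were no longer called, leaving 1 member higher. At a threshold of 0.01, Porcn (1.17), Lrp5 (0.78) and Ctnnb1 (0.63) were not called, which left 1 member higher and 3477 of all genes called. With library quality weights in voom, Fzd7 (0.27), Lrp6 (0.26) and Apc (0.48) passed, making 7 members higher, and 9540 genes were called. When 1 library was left out, log2 changes ranged over 0.95 to 1.50 for Porcn, 0.23 to 0.85 for Fzd7, 0.57 to 0.97 for Lrp5 and 0.62 to 0.65 for Ctnnb1. The members higher numbered 1 to 5 and all genes called 3836 (without doxycycline replicate 3) to 9286 (without control replicate 3), with 3862 without doxycycline replicate 2. The cause of these moves was not tested. Fewer samples enter the fits that leave a library out.

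Replicate numbers are shared between the groups, but same-numbered libraries did not deviate together (r of -0.299, 0.119 and -0.187 across genes), so they were not taken as pairs. Deviations were taken from group means, which control replicate 3 moves for all controls. The check therefore cannot show that the samples were unpaired. With the replicate block, Porcn (1.21), Lrp5 (0.82) and Ctnnb1 (0.63) were not called and 1 member was higher. Their edgeR adjusted p was 0.0551, 0.0756 and 0.0579, and 4509 of all genes were called, against 5850 without the block. Tcf7l1 was too low for DESeq2, voom, the block, the length trend, the filter of 10 counts and the stricter threshold, and without doxycycline replicate 1 it had no ratio.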

Other observations

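Some Wnt signals act through cell polarity and not beta-catenin. A list of 21 planar polarity genes was drawn up after the data were seen. Of 17 measured, 5 rose and 4 fell, where 21.7% of all genes rose and 23.6% fell, and without control replicate 3 it was 5 that rose and 6 that fell of 18. The paralogs Vangl1 and Vangl2, core membrane proteins of the polarity complex, went opposite ways. Vangl1 had 59.97, 59.77 and 56.11 CPM with doxycycline, against 25.56, 27.25 and 19.23 CPM in controls (log2 change 1.29, SE 0.18, edgeR adjusted p = 0.00149). Vangl2 had 3.944, 2.221 and 3.604 CPM with doxycycline, against 21.23, 18.32 and 16.71 CPM in controls (-2.52, SE 0.273, adjusted p = 0.000561). In both genes the groups did not overlap.

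The Celsr cadherin genes of the same complex also split. Celsr3 averaged 8.53 ± 0.607 CPM with doxycycline and 3.70 ± 0.291 CPM in controls (log2 change 1.20, SE 0.215, edgeR adjusted p = 0.00408), and Celsr2 averaged 5.74 ± 0.723 CPM with doxycycline and 18.4 ± 6.16 CPM in controls (-1.68, SE 0.304, adjusted p = 0.00452). Celsr1 had a log2 change of 0.10 (adjusted p = 0.811). Prickle1 had 8 counts over the doxycycline libraries and 71 over the controls (-2.88, adjusted p = 0.0268). Smurf1 and Smurf2, ubiquitin ligases that act on Prickle, had log2 changes of 0.70 and 0.79 (adjusted p = 0.0182 and 0.0314).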
